A study of Homo sapiens with 24 samples.

Results

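The genes described here encode the proteins of the cytosolic ribosome, the particle that translates nuclear-encoded mRNA. They were chosen by symbol: every gene with a single symbol made of RPL or RPS and a number, together with RPLP0, RPLP1, RPLP2 and RPSA, without the RPS6K kinases and the RPS4 genes of the sex chromosomes. The rule found 84 of the 12165 genes on the array. Of these, 61 are core ribosomal proteins: 37 of the large subunit, 22 of the small subunit and 2 P stalk proteins, RPLP1 and RPLP2. A further 6 are paralogs, related genes expressed in place of or beside a core gene, and 17 have pseudogene symbols, the names of copies of these genes in the genome. Against a list of 76 core ribosomal proteins, 5 (RPL21, RPL34, RPL36A, RPS3 and RPS26) had only probe sets shared with another symbol. Another 10, among them the P stalk protein RPLP0, were not analysed here.

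RNA was profiled on 24 one-colour Affymetrix arrays from established human acute myeloid leukemia (AML) lines: MOLM-14, KG-1, U937 and HL-60. Each line received the vehicle dimethyl sulfoxide (DMSO) or R406 at 4 µM for 24 h, and 8 groups of 3 arrays resulted. Fostamatinib is the prodrug of R406, a small molecule that blocks several kinases including SYK and FLT3. An internal duplication activates FLT3 in MOLM-14, KG-1 derives from immature myeloblasts, and U937 and HL-60 have monocytic and promyelocytic features. No line carried a transgene in the labels, and each genetic background is a single line, so a difference between lines is one between these 4 lines only. The labels call the arrays of a group triplicates without saying how they were separated, so that p-values measure the spread between triplicates, which may be partly technical.

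A cytosolic ribosome has a small subunit, which holds the mRNA and reads its codons, and a large subunit, which joins the amino acids. The flexible P stalk of the large subunit recruits the translation factors. The core ribosomal protein mRNAs are among the most abundant in dividing cells and typically begin with a terminal oligopyrimidine (TOP) tract, a cytosine at the first base followed by a run of pyrimidines, through which the kinase mTOR and the protein LARP1 control their translation. Haploinsufficiency of several members, RPS19, RPL5 and RPL11 among them, causes Diamond-Blackfan anemia, and loss of 1 copy of RPS14 underlies the anemia of the 5q- form of myelodysplastic syndrome. Free RPL5 and RPL11 bind MDM2 and thereby stabilise p53.

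Values are probe set intensities on a linear scale. A fold change is the mean R406 minus the mean DMSO value on the log2(intensity + 1) scale, and a gene was called, and said to have risen or fallen, at an adjusted p under 0.05 by limma over all 12165 genes. Of all genes, 31.1% were called higher and 25.0% lower in MOLM-14, 6.10% and 5.43% in U937, 7.20% and 7.98% in HL-60, and 23.5% and 20.9% in KG-1. The median fold change of all genes was 0.07, 0.003, -0.003 and 0.02 in the same order. Lineage markers set the lines apart in the DMSO groups: CD34 averaged 613 in KG-1 against 17.0 to 18.1 in the others, and MPO averaged 6416 in HL-60 against 10.9 to 44.0. The monocyte marker CD14 was near the lowest intensities in MOLM-14 and U937 (7.20 and 7.40), but averaged 279 in HL-60 with DMSO and 853 with R406. Granule markers did not single out HL-60 either. With DMSO, ELANE, AZU1 and CTSG averaged higher in MOLM-14 and U937 than in HL-60, while PRTN3 was highest in HL-60. Several of these lists also moved with R406. The summed intensity of 4 granule markers lay between 4189 and 4674 on the DMSO arrays and between 1136 and 1211 on the R406 arrays of HL-60, where all 4 fell. In MOLM-14, where 3 of them fell, it lay between 7176 and 7784 and then between 4414 and 4765. That of 4 monocytic markers lay between 1239 and 1257 with DMSO and between 2514 and 2613 with R406 in MOLM-14, where 2 rose and 1 fell. Most of this sum was FLT3, which averaged 914 with DMSO and 2263 with R406. CSF1R averaged 17.1 and 74.1, FCGR1A 310 and 211, and CD14 7.20 and 7.80, so the sum does not speak for the list. Both progenitor markers, CD34 and HLA-DRA, rose in KG-1. HLA-DRA also rose in MOLM-14, where it averaged 77.1 with DMSO and 527 with R406. CD34 averaged 17.0 and 15.6 there and was not called. The part of all these markers in the ribosomal protein values was not tested. Markers of T cells, B cells, erythroid, epithelial and fibroblast cells averaged at most 37.8 in any group. The array KG-1 R406 replicate 2 stood apart from its group over all genes, with a root mean square deviation of 0.27 log2 units against 0.19 for its 2 partners, but not over the core ribosomal proteins (0.064 against 0.060 and 0.066).

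The annotated transcript starts are shown because most core genes carry a TOP tract there. Each window runs from 10 bases before to 20 bases from the annotated start, taken from RefSeq on GRCh38.p14, 5′ to 3′ on the gene's strand, with the nearest tract (C followed by at least 4 C or T, starting within 5 bases of the start) in capitals. Where several starts were listed, the first was taken. Of the 11 core genes that rose with R406 in MOLM-14 as well as KG-1, RPL31 and RPLP2 are not shown. The other 9 come first.
RPL11 (chr1:23691769-23691798, plus strand): cctggcccataaggCCCTCggccggaagct
RPL18 (chr19:48619159-48619188, minus strand): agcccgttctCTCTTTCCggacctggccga
RPL22 (chr1:6199576-6199605, minus strand): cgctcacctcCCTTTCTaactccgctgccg
RPL35A (chr3:197950180-197950209, plus strand): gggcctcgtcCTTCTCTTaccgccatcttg
RPL36 (chr19:5690285-5690314, plus strand): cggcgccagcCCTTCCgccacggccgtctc
RPS9 (chr19:54200848-54200877, plus strand): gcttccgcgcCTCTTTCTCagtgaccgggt
RPS14 (chr5:150449720-150449749, minus strand): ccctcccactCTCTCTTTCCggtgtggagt
RPS25 (chr11:119018324-119018353, minus strand): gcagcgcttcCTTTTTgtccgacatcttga
RPS27 (chr1:153990752-153990781, plus strand): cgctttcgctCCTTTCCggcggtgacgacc
Next are 6 core genes whose change differed widely between lines or that have a paralog below; RPL10 has no tract there.
RPL35 (chr9:124861938-124861967, minus strand): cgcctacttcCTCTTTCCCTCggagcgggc
RPL39 (chrX:119791611-119791640, minus strand): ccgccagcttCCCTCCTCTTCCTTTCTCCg
RPL37A (chr2:216498834-216498863, plus strand): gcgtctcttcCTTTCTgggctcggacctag
RPL27A (chr11:8682782-8682811, plus strand): gaaggccttcCTTTTTCgtctgggctgcca
RPS28 (chr19:8321486-8321515, plus strand): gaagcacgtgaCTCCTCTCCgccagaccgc
RPL10 (chrX:154398055-154398084, plus strand): ccactctcagaaatatacgtctgtcacagt
Last are the 4 paralogs with an entry.
RPS27L (chr15:63157458-63157487, minus strand): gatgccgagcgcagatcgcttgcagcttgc
RPL26L1 (chr5:172958719-172958748, plus strand): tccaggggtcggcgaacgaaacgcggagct
RPL10L (chr14:46651762-46651791, minus strand): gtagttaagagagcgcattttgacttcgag
RPL36AL (chr14:49620607-49620636, minus strand): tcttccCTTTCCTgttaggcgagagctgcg
Of the 51 core genes with an entry, 35 (68.6%) had a C at the annotated first base followed by at least 4 C or T, against 4.60% of 15843 protein-coding genes and 5 of 74 mitochondrial ribosomal protein genes (6.76%). None of the 4 paralogs with an entry had it, although RPL36AL has a tract that starts 4 bases upstream. In the windows from 250 bases before to 50 after the start, the letters CGGAAG were found on either strand in 60.8% of core genes and 25.6% of protein-coding genes, TATAAA in 5.88% and 9.63%, CACGTG in 5.88% and 8.88%, and AAGATGG in 11.8% and 6.4%. The genes with a tract at the start had a median fold change of 0.12 in MOLM-14 and 0.12 in KG-1, and the 16 without had 0.10 and 0.09, values whose difference was not tested.

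With R406 most core ribosomal protein genes read slightly higher in MOLM-14 and KG-1, most read slightly lower in U937, and HL-60 showed both signs about equally. In MOLM-14, 23 of 61 core genes rose and none fell, and in KG-1 15 rose and none fell. The shares that rose, 37.7% and 24.6%, lay near the 31.1% and 23.5% of all genes called higher. No core gene was called lower in either line, where 25.0% and 20.9% of all genes were. At an unadjusted p under 0.05 limma gave 0 lower core genes in both. Limma-trend called 36 higher and 0 lower in MOLM-14 and 31 higher and 1 lower in KG-1, and a pseudocount of 16 gave 36 and 30 higher, so these counts depend on the setting. MOLM-14 had a median core fold change of 0.10 and KG-1 of 0.11, or 6.97% and 7.58% more intensity. Fold changes were above 0 for 56 and 57 of the 61, for 14 in U937 and for 31 in HL-60. Of all 12165 genes they were above 0 for 7121 in MOLM-14, 6524 in KG-1, 6183 in U937 and 6007 in HL-60. The core shares above 0 were 91.8%, 93.4% and 23% in MOLM-14, KG-1 and U937. Repeated quantile normalization gave 72.1%, 78.7% and 39.3%, and centring arrays on their median gave 95.1%, 65.6% and 6.56%. In U937 no core gene was called (0 higher and 4 lower at an unadjusted p under 0.05 by limma; limma-trend called 3 lower), and the median was -0.02. In HL-60 RPS28 was called lower and no core gene higher (1 higher at an unadjusted p under 0.05 by limma, and 1 by limma-trend), and the median was 0.004, a sign that turned to -0.004 when quantile normalization was repeated.

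These small shifts depended on the scaling more in KG-1 than in MOLM-14. Centring each array on its median left 5 core genes higher and 1 lower in KG-1 with a median of 0.04, while 28 were higher in MOLM-14 with a median of 0.12. Quantile normalization repeated on the deposited values gave 15 higher and 1 lower in MOLM-14 and 9 higher and 1 lower in KG-1, with a median of 0.06 in both. Without KG-1 R406 replicate 2, 10 core genes rose in KG-1 with a median of 0.08. Most losses of single calls given below are those with 1 array left out, so a call without such a loss may still depend on the scaling. In a bulk culture, a change in which cells carry an mRNA and a change in its amount per cell cannot be told apart.

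**Figure D1:**
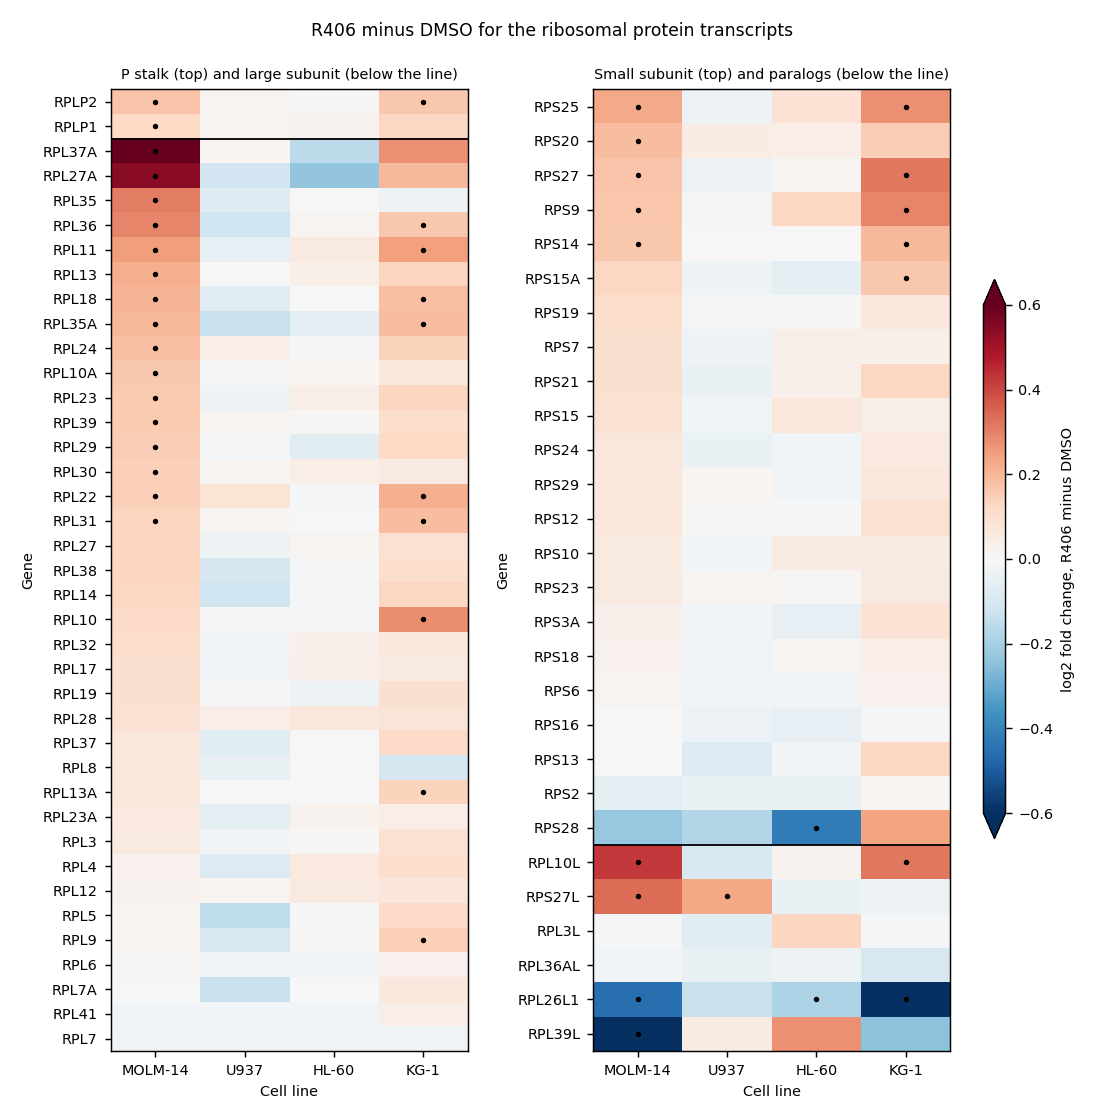
Log2 fold change (R406 minus DMSO, colour, limited to 0.6 in either direction) of each core ribosomal protein and paralog (rows) in the 4 lines (columns), with a dot where the adjusted p was under 0.05. The MOLM-14 and KG-1 columns hold 23 and 15 core genes called higher. Among core genes, the U937 column holds no call and the HL-60 column holds RPS28 alone, called lower. Paralog rows also carry dots, among them RPS27L in U937 and RPL26L1 in HL-60.

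Array by array, the core genes took a larger share of the summed intensity after R406 in MOLM-14 and KG-1. In MOLM-14 the DMSO arrays gave 14.15%, 14.1% and 14.12% and the R406 arrays 15.73%, 16.04% and 15.79%. In KG-1 the DMSO arrays gave 13.28%, 13.36% and 13.2% and the R406 arrays 14.34%, 14.79% and 14.24%. The groups did not overlap in either line. In U937 the DMSO arrays gave 12.5%, 12.57% and 12.44% and the R406 arrays 12.31%, 12.41% and 12.29%, so that these groups did not overlap either, with R406 lower. In HL-60 the shares were 13.7% ± 0.053 (SD, n = 3) and 13.8% ± 0.047, with overlapping arrays. The share in U937 was below that of every other line in both treatments. This share also depends on the other genes in the sum, many of which were called lower in MOLM-14 and KG-1.

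**Figure D2:**
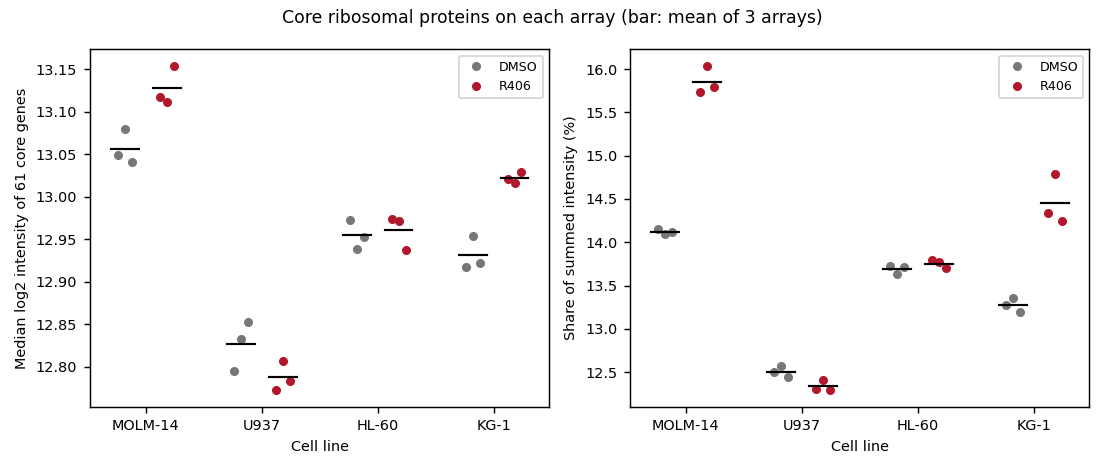
Median log2 intensity of the 61 core genes (left) and their share of the summed intensity of all genes in percent (right) on each array, grey for DMSO and red for R406, with a bar at the mean of 3 arrays. The vertical axes do not start at 0. The R406 arrays of MOLM-14 and KG-1 lie above all DMSO arrays of the same line in both panels.

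Among the large-subunit proteins, 16 of 37 (43.2%) rose in MOLM-14 and 9 (24.3%) in KG-1, against 31.1% and 23.5% of all genes, and none was called in U937 or HL-60. RPL35, which lies near the mouth of the exit tunnel, showed the clearest change among the brightly measured members. Its DMSO arrays in MOLM-14 read 4405, 4382 and 4508 and its R406 arrays 5490, 5457 and 5505. In KG-1 they read 4461, 4468 and 4194 with DMSO and 4152, 4375 and 4300 with R406. The U937 means were 3597 ± 244 (SD, n = 3) and 3404 ± 156, and those of HL-60 were 4727 ± 115 and 4721 ± 175. The 3 MOLM-14 R406 arrays were higher than all 21 other arrays, and in the other 3 lines the groups overlapped. RPL35 rose by 0.31 in MOLM-14 (SE 0.06, adjusted p = 0.000114). Its change in KG-1 was -0.03 (adjusted p = 0.726), and it was the only core gene whose change differed between MOLM-14 and KG-1, by 0.34 (adjusted p = 0.003).

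RPL11, the MDM2-binding protein, rose in MOLM-14 and in KG-1. In MOLM-14 the arrays read 5830, 5549 and 6307 with DMSO and 7088, 6812 and 7095 with R406. In KG-1 they read 5197, 5340 and 4761 with DMSO and 5949, 6226 and 5955 with R406. Neither pair of groups overlapped. RPL11 rose by 0.25 in each line (SE 0.06, adjusted p = 0.00165 and 0.00227), or 18.9% and 18.6%. In U937 the means were 5968 ± 243 and 5761 ± 193, and in HL-60 5833 ± 253 and 6048 ± 88.3, with overlapping arrays.

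RPL10, which sits near the catalytic centre and is recurrently mutated in T cell leukemia, was called in KG-1 alone. The KG-1 arrays read 5597, 5593 and 5914 with DMSO and 6634, 7362 and 6740 with R406. It rose there by 0.28 (SE 0.06, adjusted p = 0.000223). In MOLM-14 it went from 7023 ± 142 (SD, n = 3) to 7599 ± 49.0, a change of 0.11 (adjusted p = 0.0880) with groups that did not overlap, and the difference between these lines was not called. RPL10 differed between U937 and KG-1 by -0.29 (adjusted p = 0.0064) and between HL-60 and KG-1 by -0.29 (adjusted p = 0.0056).

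RPL36, a small protein of the large subunit, went from 4449 ± 265 (SD, n = 3) to 5437 ± 15.2 in MOLM-14 and from 3208 ± 127 to 3588 ± 185 in KG-1. It rose by 0.29 in MOLM-14 (adjusted p = 0.000429) and by 0.16 in KG-1 (adjusted p = 0.0437). The KG-1 call was lost with any of 10 of the 24 arrays left out, with adjusted p up to 0.172. These were every KG-1 array but R406 replicate 3, and 5 arrays of other lines. RPL35A, whose loss is another cause of Diamond-Blackfan anemia, rose by 0.20 in MOLM-14 (adjusted p = 0.00515) and 0.18 in KG-1 (adjusted p = 0.0107). The KG-1 call of RPL35A was lost without DMSO replicate 3 or R406 replicate 2 (adjusted p up to 0.0714). RPL35A ranged from 3613 to 3791 on the U937 DMSO arrays and from 3363 to 3386 on the R406 arrays, a change of -0.13 that was not called (adjusted p = 0.162).

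RPL22, an RNA-binding protein whose loss is found in T cell leukemia, rose in both lines on its brightest probe set. Its means were 6962 ± 237 and 7691 ± 197 in MOLM-14, and 6108 ± 263 and 7075 ± 190 in KG-1. The changes were 0.14 (adjusted p = 0.0436) and 0.21 (adjusted p = 0.00487), and the MOLM-14 call was lost with any of 6 arrays left out (adjusted p up to 0.141). These were MOLM-14 DMSO replicates 1 and 3, MOLM-14 R406 replicates 1 and 2, U937 R406 replicate 3 and HL-60 R406 replicate 2. RPL18 rose by 0.20 in MOLM-14 and 0.18 in KG-1 (adjusted p = 0.00176 and 0.00551). RPL31, at the tunnel exit, went from 10240 to 11199 in MOLM-14 and from 9688 to 11017 in KG-1, changes of 0.13 (adjusted p = 0.0489) and 0.19 (adjusted p = 0.00718). The first of these RPL31 calls was lost with any of 19 of the 24 arrays left out, with adjusted p up to 0.168. The KG-1 call of RPL31 was lost when quantile normalization was repeated (adjusted p = 0.134) or arrays were centred on their median (adjusted p = 0.0907).

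Smaller calls in MOLM-14 were those of RPL29 (0.15, adjusted p = 0.0185), RPL30 (0.15, adjusted p = 0.0173) and RPL39 (0.16, adjusted p = 0.0139), a very small protein of the exit tunnel. RPL29 lost its call without MOLM-14 DMSO replicate 3 (adjusted p = 0.058) and RPL30 without DMSO replicate 1 or 2 (adjusted p up to 0.0621). RPL39 kept its call with each array left out in turn. It lost the call when quantile normalization was repeated (0.07, adjusted p = 0.277) and with the 6 arrays of the line alone (adjusted p = 0.0929). The largest log2 changes in MOLM-14, those of RPL37A and RPL27A, came from dim probe sets. RPL37A read 73.7, 76.8 and 71.6 with DMSO and 110, 126 and 150 with R406, a rise of 0.78 (SE 0.14, adjusted p = 5.78e-05). Its second probe set, dimmer still with a mean of 50.6, gave -1.04 in the same line, so that the direction of RPL37A was not settled by these arrays. RPL27A, with 1 probe set, read 46.4, 44.7 and 42.9 with DMSO and 56.5, 67.9 and 73.3 with R406, a rise of 0.54 (SE 0.11, adjusted p = 0.000158).

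In KG-1, RPL9 and RPL13A were called close to the threshold. RPL9 went from 8878 ± 329 (SD, n = 3) to 9793 ± 249, a change of 0.14 (adjusted p = 0.0493). RPL13A, known for its part in silencing inflammatory mRNAs once released from the ribosome, went from 9911 ± 266 to 10862 ± 179, a change of 0.13 (adjusted p = 0.0469). RPL9 lost its call with any of 21 arrays left out and RPL13A with any of 17 (adjusted p up to 0.189 and 0.155). RPL5, which enters the ribosome with RPL11 and the 5S RNA, was called in no line: its changes were 0.02 in MOLM-14, 0.12 in KG-1, -0.15 in U937 and -0.005 in HL-60. RPL3, next to the catalytic centre, had changes of 0.06, 0.09, -0.02 and 0.008 in the same order and was not called either.

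Among the small-subunit proteins, 5 of 22 rose in each of MOLM-14 and KG-1, or 22.7%, against 31.1% and 23.5% of all genes. RPS27, a zinc-binding protein, rose in both. Its KG-1 arrays read 6453, 6718 and 6272 with DMSO and 7945, 8282 and 7975 with R406. In MOLM-14 they read 8042, 8173 and 8424 with DMSO and 8964, 9538 and 9265 with R406. The groups did not overlap in these lines and did in U937 (6984 ± 282 and 6815 ± 361, SD, n = 3) and HL-60 (7262 ± 246 and 7346 ± 108). RPS27 rose by 0.32 in KG-1 (SE 0.06, adjusted p = 7.37e-05), the largest change of a core gene there, and by 0.17 in MOLM-14 (adjusted p = 0.0140). The MOLM-14 call was lost without R406 replicate 2 (adjusted p = 0.0524).

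RPS9, which holds the mRNA entry site, read 4581, 4612 and 4343 with DMSO and 5418, 5602 and 5557 with R406 in KG-1, a rise of 0.29 (SE 0.06, adjusted p = 0.000151). In MOLM-14 RPS9 rose by 0.17 (adjusted p = 0.0151, or 0.0657 without DMSO replicate 3). RPS25, needed by several viral internal ribosome entry sites, rose by 0.23 in MOLM-14 and 0.27 in KG-1 (adjusted p = 0.0191 and 0.00626). Its KG-1 DMSO arrays were uneven, at 4243, 5137 and 3971, and the groups still did not overlap, with R406 arrays at 5497, 5216 and 5348. The RPS25 calls were lost without MOLM-14 DMSO replicate 1 (adjusted p = 0.0752) and without KG-1 DMSO replicate 3 (adjusted p = 0.0613). RPS14, the 5q- gene, went from 6828 ± 156 to 7631 ± 342 in MOLM-14 and from 4644 ± 141 to 5314 ± 128 in KG-1, rises of 0.16 (adjusted p = 0.0158) and 0.19 (adjusted p = 0.00500). The first was lost without MOLM-14 DMSO replicate 3 or R406 replicate 2 (adjusted p up to 0.0792).

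RPS15A, another small-subunit protein, was called in KG-1 (9850 ± 323 to 11006 ± 433, a change of 0.16, adjusted p = 0.0211), and lost its call there without DMSO replicate 1 or R406 replicate 2 (adjusted p up to 0.0971). RPS28, near the mRNA exit, was the only core gene called lower anywhere. Its only probe set is dim: the HL-60 arrays read 33.6, 43.7 and 33.4 with DMSO and 29.8, 25.0 and 26.8 with R406. It fell by 0.42 (SE 0.14, adjusted p = 0.0389), and the call was lost without HL-60 DMSO replicate 2, R406 replicate 2 or R406 replicate 3 (adjusted p up to 0.228). RPS6, the substrate of the S6 kinases, had changes of 0.02 in MOLM-14, 0.03 in KG-1, -0.02 in U937 and -0.02 in HL-60, and RPS19, the most often mutated gene of Diamond-Blackfan anemia, 0.11, 0.06, -0.01 and 0.007 in the same order. Neither was called, although the RPS19 arrays of MOLM-14 did not overlap (9414 ± 77.2 and 10135 ± 58.7, adjusted p = 0.0730).

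Both P stalk proteins analysed, RPLP1 and RPLP2, rose in MOLM-14, and RPLP2 rose in KG-1. RPLP2 read 7038, 7582 and 7097 with DMSO and 7839, 8487 and 8097 with R406 in MOLM-14, and 7104, 7252 and 6874 with DMSO and 7918, 7918 and 7931 with R406 in KG-1. The rises were 0.17 (adjusted p = 0.0162) and 0.16 (adjusted p = 0.0248). The RPLP2 calls were lost with any of 3 MOLM-14 arrays left out (DMSO replicates 1 and 3 and R406 replicate 2, adjusted p up to 0.0714) and with any of 4 KG-1 arrays (replicates 1 and 3 of both groups, adjusted p up to 0.0917). RPLP1 changed by 0.12 in both lines, with an adjusted p of 0.0470 in MOLM-14 and 0.0523 in KG-1, so that the call in 1 line alone does not set the lines apart. With 20 of the 24 arrays, leaving out that array ended the MOLM-14 call of RPLP1.

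The genes that rose in MOLM-14 and those that rose in KG-1 shared 11 members: RPL11, RPL18, RPL22, RPL31, RPL35A, RPL36, RPLP2, RPS9, RPS14, RPS25 and RPS27. They are 47.8% of the MOLM-14 set and 73.3% of the KG-1 set. In all, 27 core genes rose in at least 1 of the lines and 33 were called in no line. Such overlaps were not counted over all genes, of which 31.1% were called higher in MOLM-14 and 23.5% in KG-1. All 3 R406 arrays were above all 3 DMSO arrays for 44 core genes in MOLM-14 and 40 in KG-1, against 31.6% and 26.5% of all genes. The reverse held for RPS2 in MOLM-14 and RPL8 in KG-1, against 26.1% and 23.2% of all genes. In either direction the groups did not overlap for 73.8% and 67.2% of core genes, against 57.7% and 49.7% of all genes. In U937 no core gene had its R406 arrays on top and 9 had them below, among them RPL5, RPL14, RPL18, RPL35A and RPL36, where 18.2% and 15.9% of all genes did so. In HL-60 the counts were 4 and 5, against 15.9% and 16.9%. In either direction 14.8% of core genes were apart in each of U937 and HL-60, against 34.0% and 32.8% of all genes.

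Tested directly, the R406 change differed between lines for 14 of 61 core genes (23.0%), against 54.8% of all genes. With limma-trend 30 core genes passed this test and with a pseudocount of 16, 31 did. The change was more positive in MOLM-14 than in U937 for 11 core genes and than in HL-60 for 7, against 22.4% and 23.3% of all genes. It was more positive in KG-1 than in U937 for 12 and than in HL-60 for 8, against 16.1% and 18.1%. Between MOLM-14 and KG-1, RPL35 alone differed, against 15.6% of all genes more positive in MOLM-14. No core gene differed in the opposite direction in these pairs. Between U937 and HL-60 no core gene differed either way by limma's adjusted p, against 4.13% of all genes more positive in U937 and 3.09% in HL-60. RPL35A differed in all 4 pairs that set MOLM-14 or KG-1 against U937 or HL-60, by 0.33 and 0.25 for MOLM-14 and 0.32 and 0.24 for KG-1. RPS27 differed between KG-1 and U937 by 0.35 (adjusted p = 0.0015) and between KG-1 and HL-60 by 0.30 (adjusted p = 0.0055).

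Without drug the lines already differed in their ribosomal protein levels. The 4 DMSO groups differed for 49 of 61 core genes (80.3%), against 68.1% of all genes, but the span was narrow: the median range of the 4 group means was 0.30 log2 units, against 0.59 for all genes. U937 was lower than the mean of the other lines for 30 core genes and higher for 2, with a median of -0.11, where 25.7% and 25.1% of all genes were lower and higher. MOLM-14 was higher for 30 and lower for 1, with a median of 0.11, against 23.4% and 25.9% of all genes. HL-60 was higher for 22 and lower for 11, and KG-1 higher for 9 and lower for 18, against 25.6% and 23.6% and against 24.4% and 28.2% of all genes.

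The widest of these ranges among bright members were those of RPL35A and RPS14. RPL35A averaged 5978 ± 71.7 (SD, n = 3) in MOLM-14, 5483 ± 125 in HL-60, 5108 ± 198 in KG-1 and 3702 ± 89.2 in U937, a range of 0.69 with every U937 array below every array of the other lines. RPS14 averaged 7304 ± 41.7 in HL-60, 6828 ± 156 in MOLM-14, 6023 ± 112 in U937 and 4644 ± 141 in KG-1, a range of 0.65. RPS14 in KG-1 lay 0.53 below the mean of the other lines (log2 difference -0.53, adjusted p = 4.9e-10). After R406 the KG-1 mean of 5314 was still below the DMSO means of the other 3 lines. RPS9 spanned 0.61, from 3849 ± 159 in U937 to 5857 ± 160 in MOLM-14. At the other end, RPL28 and RPL32 had ranges of 0.05 and 0.06 and did not pass the test (adjusted p = 0.812 and 0.765).

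Because nearly all of these probe sets are very bright, the size of the changes was set against the intensity. Of the 61 core genes, 57 were among the 100 brightest genes by mean intensity and 16 among the brightest 20, and 57 lay over 4000. The highest value on each array was 11046 to 12686. Array brightness is a property of the probes as well as of the mRNA and gives no order of abundance between genes. Among the 58 bright core genes, brighter ones had smaller changes in MOLM-14 and KG-1, with a Pearson correlation of -0.64 in MOLM-14 and -0.39 in KG-1 (Spearman -0.54 and -0.42). In U937 and HL-60 the Pearson values were 0.25 and -0.16. These correlations are across genes measured on the same arrays and carry no test.

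By intensity class, the median change in MOLM-14 was 0.19 for the 8 core genes from 4000 to 6000, 0.11 for 19 from 6000 to 8000, 0.09 for 23 from 8000 to 10000 and 0.06 for 7 above. In the lowest of these classes all 8 rose, and in the highest 1 of 7 did. Of the other genes in MOLM-14, 7 of 33 rose and 13 fell in the lowest class. In the highest, 0 of 4 rose and 0 fell. KG-1 gave 0.16, 0.12, 0.07 and 0.04 in the same classes. Other genes of these classes had MOLM-14 medians of -0.10 (33 genes), -0.40 (11), -0.02 (5) and -0.006 (4). Their lowest values were -2.49, -1.27, -0.54 and -0.06.

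**Figure D3:**
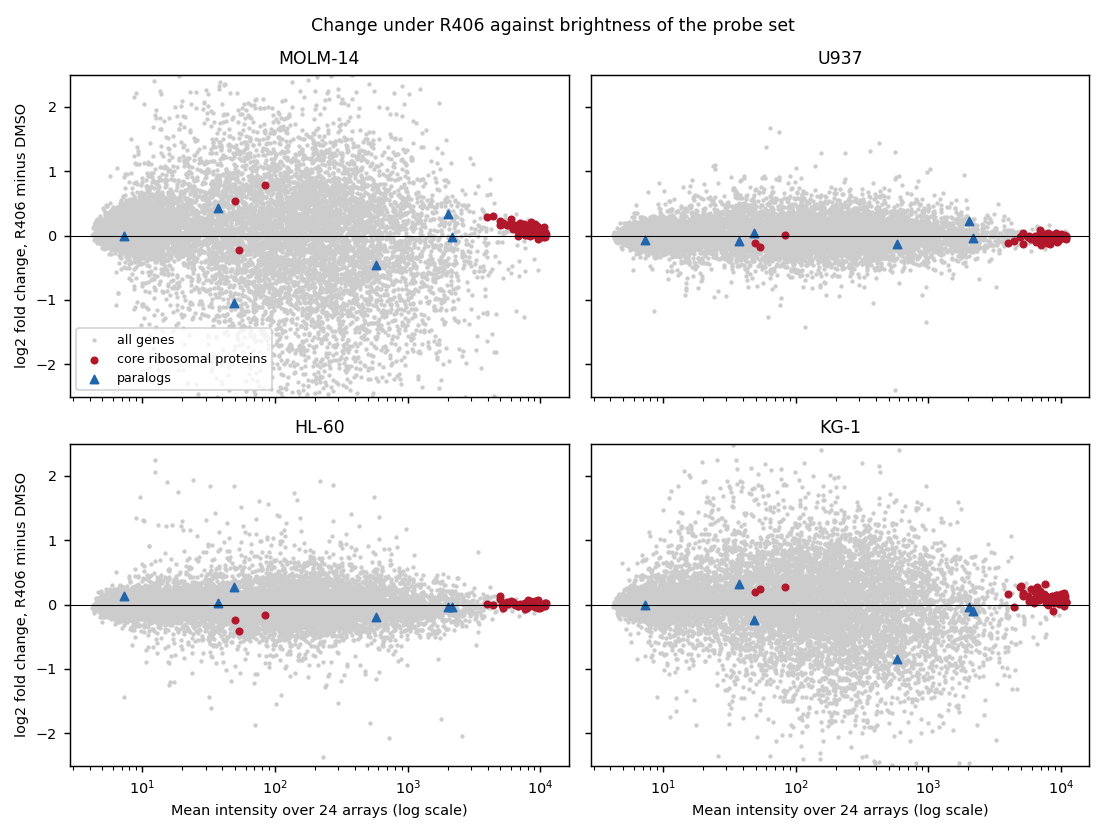
Log2 fold change (vertical axis, limited to 2.5 in either direction, which leaves out 200 values over the 4 panels) against mean intensity on a log axis for all genes (grey) and core ribosomal proteins (coloured), 1 panel a line. Nearly all core genes sit at the bright end, where their changes in MOLM-14 become smaller towards the highest intensities.

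Several genes carry more than 1 bright probe set, which can allow the same mRNA to be read at different brightness. Some of these probe sets were about equally bright, such as those of RPL12 with means of 8363 and 8358. For 19 core genes with at least 2 probe sets over 1000, the dimmest of these gave the more positive change than the brightest for 16 in MOLM-14 and 16 in KG-1, and for 6 in U937 and 9 in HL-60. Only 6 of the 19 genes had probe sets that differed at least 1.5-fold. The dimmer one gave the more positive change for 5 in MOLM-14, 5 in KG-1, 1 in U937 and 2 in HL-60. For these 6 genes the median was 0.10 on the brighter and 0.21 on the dimmer probe set in MOLM-14, and 0.13 and 0.27 in KG-1. RPL22 was 0.14 and 0.21 in MOLM-14 and KG-1 at a mean intensity of 6979, but 0.59 and 0.58 at 1406. RPL13A was 0.06 and 0.13 at 10630 and 0.24 and 0.44 at 3144. Probe sets of a gene can also read different transcripts, and 51 of the 61 core genes were represented by a probe set marked _x_at or _s_at, which can bind several transcripts, so the part of saturation in these values was not tested.

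The further probe sets under 1000 gave both signs. Of 23 such probe sets, 14 lay above 0 and 9 below in MOLM-14 (-1.35 to 0.88), and 10 above and 13 below in KG-1 (-1.001 to 0.81). The lowest were those of RPL23 in both lines, and the highest were those of RPL38 in MOLM-14 and RPL28 in KG-1. RPL10 gave -0.43 in MOLM-14 and -0.36 in KG-1 on a probe set with a mean of 164 but 0.43 and 0.26 on one with a mean of 15.2, and RPS14 gave -0.58 and -0.42 on one with a mean of 11.5. RPL35A gave -0.13 and -0.05 at 6.44 and 0.79 and 0.50 at 47.4, RPL5 gave -0.51 in KG-1 at 22.8 and RPLP2 -0.07 in KG-1 at 13.7. Which transcripts these dim probe sets read was not tested.

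**Figure D4:**
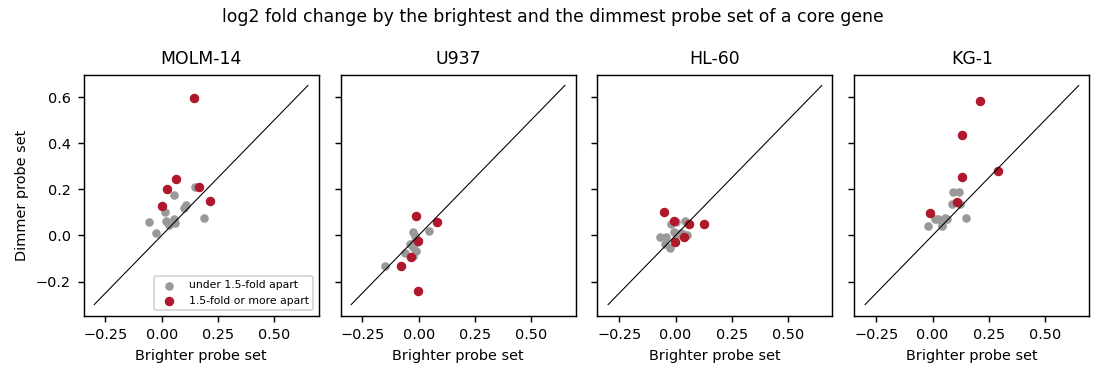
Log2 fold change on the dimmest (vertical axis) against the brightest (horizontal axis) probe set over 1000 of each of 19 core genes, 1 panel a line, with the line of equal change. Red points are the 6 genes whose probe sets differ at least 1.5-fold in intensity. In MOLM-14 and KG-1, 16 of the 19 points lie above the line, among them 5 of the 6 red points.

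Each paralog is described in turn. RPL26L1, a close copy of RPL26, fell in 3 of the 4 lines. Its KG-1 arrays read 990, 1001 and 1003 with DMSO and 580, 504 and 580 with R406. In MOLM-14 they read 548, 550 and 533 with DMSO and 418, 377 and 397 with R406. In HL-60 they read 628, 588 and 643 with DMSO and 530, 554 and 543 with R406, and in U937 508, 532 and 526 with DMSO and 467, 487 and 477 with R406. The groups did not overlap in any line, and KG-1 with DMSO was above all other groups. RPL26L1 fell by 0.85 in KG-1 (SE 0.06, adjusted p = 1.28e-10), by 0.45 in MOLM-14 (adjusted p = 1.3e-06) and by 0.19 in HL-60 (adjusted p = 0.0394). In U937 the change was -0.13 (adjusted p = 0.215). The HL-60 call was lost with any HL-60 array but DMSO replicate 2 left out (adjusted p up to 0.151). The change in KG-1 was lower than that in MOLM-14 by 0.40 (adjusted p = 0.00116).

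RPL39L, a copy of RPL39 best known from testis and some cancers, fell in MOLM-14 and differed most between lines. Its MOLM-14 arrays read 72.6, 73.2 and 74.1 with DMSO and 36.2, 31.2 and 37.4 with R406. In U937 they read 112, 95.7 and 82.4 with DMSO and 97.1, 109 and 91.3 with R406. HL-60 averaged 30.7 ± 2.91 (SD, n = 3) and 37.3 ± 3.22, and KG-1 10.3 ± 2.20 and 8.43 ± 1.18, near the lowest intensities. RPL39L fell by 1.05 in MOLM-14 (SE 0.13, adjusted p = 1.77e-07), while the changes of 0.04, 0.27 and -0.25 in U937, HL-60 and KG-1 were not called. The MOLM-14 change was lower than that of each other line (adjusted p = 2.29e-05, 1.66e-06 and 0.00116). The DMSO groups of RPL39L spanned 3.12 log2 units from KG-1 to U937. RPL39 itself spanned 0.11 and rose by 0.16 in MOLM-14.

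RPS27L, a copy of RPS27 and a known p53 target, rose in MOLM-14 and U937. The MOLM-14 arrays read 2319, 2432 and 2486 with DMSO and 3046, 3037 and 3051 with R406. In U937 they read 2077, 2102 and 2074 with DMSO and 2379, 2424 and 2542 with R406. In HL-60 and KG-1 the groups overlapped, with means of 1873 ± 51.9 and 1825 ± 61.1, and of 1249 ± 88.3 and 1221 ± 19.2. RPS27L rose by 0.34 in MOLM-14 (SE 0.06, adjusted p = 3.11e-05) and by 0.23 in U937 (adjusted p = 0.0111, or 0.0647 without U937 R406 replicate 3). Its change in MOLM-14 exceeded that in HL-60 and KG-1 by 0.37 each (adjusted p = 0.000642 and 0.00134). RPS27, in contrast, rose most in KG-1, where RPS27L changed by -0.03.

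RPL10L, a testis copy of RPL10, rose by 0.42 in MOLM-14 (40.9 ± 2.06 to 55.3 ± 4.03, adjusted p = 0.0017) and by 0.32 in KG-1 (28.5 ± 3.13 to 36.0 ± 6.26, adjusted p = 0.0184), where the arrays overlapped. The KG-1 call of RPL10L was lost without DMSO replicate 2 or 3 or R406 replicate 2 (adjusted p up to 0.163). RPL36AL, a widely expressed copy of RPL36A, was called in no line, with changes from -0.09 to -0.02. RPL3L, the muscle copy of RPL3, lay between 5.57 and 8.87 on every array, next to the lowest value of 3.41 on any array, and was not called.

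**Figure D5:**
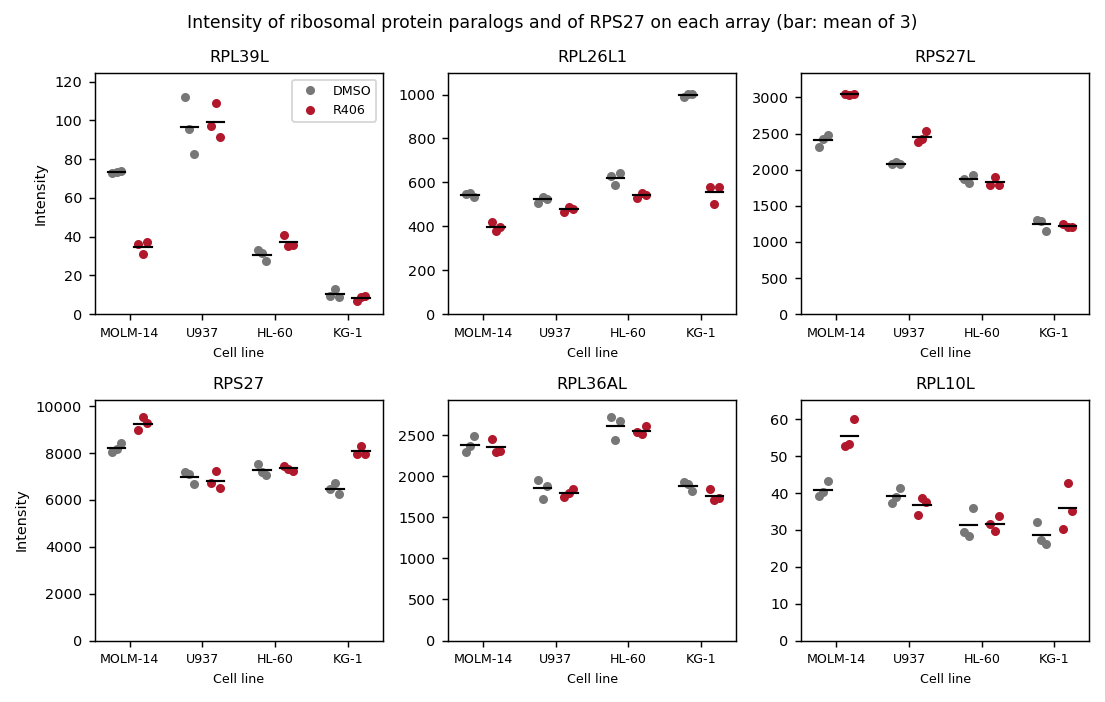
Intensity of the paralogs RPL39L, RPL26L1, RPS27L, RPL36AL and RPL10L and of RPS27 on each array, by line. Grey is DMSO and red is R406, with a bar at the mean of 3 arrays and vertical axes that start at 0. The paralog RPL3L is not shown. RPL26L1 is lower with R406 in every line, RPL39L in MOLM-14, and RPS27L is higher in MOLM-14 and U937.

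Of the 17 other symbols, 11 (64.7%) rose in MOLM-14 and 5 (29.4%) in KG-1, against 31.1% and 23.5% of all genes, and none fell there (0 lower at an unadjusted p under 0.05 by limma). RPS28P6 went from 300.5 ± 17.9 (SD, n = 3) to 499.6 ± 21.8 in MOLM-14, a rise of 0.73 (adjusted p = 5.61e-09), and rose by 0.39 in KG-1. RPL29P5 rose by 0.71 and 0.25, and RPL10P2 by 0.67 and 0.33 in the same lines. RPL7P52 fell by 0.43 in U937 and RPL23AP7 fell by 0.45 in HL-60. Whether these probe sets also read the core mRNAs was not tested. The medians of the 17 were 0.31 in MOLM-14 and 0.14 in KG-1, and those of the core genes 0.10 and 0.11.

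Among translation factors and other proteins whose mRNAs are known to carry TOP tracts, 6 of 17 rose and none fell in MOLM-14 (median 0.14; 0 lower at an unadjusted p under 0.05 by limma), and 11 rose and NPM1 alone fell in KG-1 (median 0.20). The shares that rose, 35.3% and 64.7%, compare with 31.1% and 23.5% of all genes. EIF3H, a subunit of initiation factor 3, went from 4519 ± 114 to 6426 ± 233 in MOLM-14, a rise of 0.51. EIF3F, of the same complex, rose by 0.47 in MOLM-14 and by 0.67 in KG-1. FAU, which encodes the ribosomal protein eS30 fused to a ubiquitin-like protein, rose by 0.20 in both. In U937 2 members fell, EEF2 by 0.24 and NPM1 by 0.21, and none was called in HL-60.

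Most mitochondrial ribosomal proteins, which form a separate ribosome, fell in MOLM-14 and KG-1. Of 50, 41 fell and 3 rose in MOLM-14 and 42 fell and none rose in KG-1, with medians of -0.69 and -0.74, where 25.0% and 20.9% of all genes fell. In U937 15 fell, and in HL-60 18, where 5.43% and 7.98% of all genes did. MRPL12 went from 455 ± 35.1 to 89.8 ± 17.3 in MOLM-14. The list of ribosome biogenesis factors, with MYC among them, had the lowest medians of the 4 lists in each line. Of 21, 19 fell in each of MOLM-14 and KG-1, with medians of -2.02 and -1.40, and 16 fell in each of U937 and HL-60. MYC, a transcriptional activator of ribosome biogenesis, fell by 3.38 in MOLM-14, 0.80 in U937, 0.62 in HL-60 and 2.11 in KG-1. NOP16, a nucleolar protein of large-subunit assembly, fell by 3.53 in MOLM-14 and 2.76 in KG-1. These lists were drawn up with earlier results of the same arrays known, so their counts are no independent evidence of direction.

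Among 12 regulators of translation, 8 fell and 3 rose in MOLM-14 and 9 fell and 2 rose in KG-1, where 25.0% and 20.9% of all genes fell. LARP1, which binds TOP tracts, fell by 0.87 in MOLM-14, 0.20 in U937, 0.25 in HL-60 and 0.32 in KG-1. EIF4EBP1, the mTOR-controlled repressor of initiation, fell by 1.67, 0.40, 0.64 and 1.51 in the same order. EIF4E, the cap-binding factor it holds, fell by 1.85 in MOLM-14 and 1.08 in KG-1. TSC1, an inhibitor of mTOR signalling, rose by 0.64 in MOLM-14, 0.32 in U937 and 0.93 in KG-1.

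The 3′ to 5′ ratio of the ACTB control, a measure of RNA integrity and labelling, moved in the same lines. Its log2 ratio was 0.34 higher with R406 in MOLM-14 and 0.12 higher in KG-1, and the difference was -0.13 in HL-60 and -0.04 in U937. The groups did not overlap in MOLM-14, KG-1 and HL-60. GAPDH gave 0.08, 0.10, -0.01 and -0.006 in MOLM-14, KG-1, HL-60 and U937. With 3 arrays against 3, the exact two-sided permutation test cannot go below 0.1, the value it gave for both controls in MOLM-14 and KG-1 and for ACTB in HL-60. The part of these ratios in the changes of the short ribosomal protein mRNAs was not tested.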

How the data were processed

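The deposited values are probe set intensities made by the authors with RMA per the submitters' processing notes; the version and annotation build are not given in the sources used here. Their range (3.41 to 12686) places them on a linear scale. The authors' intensities were taken as log2(intensity + 1). Of 22277 probe sets, 62 controls, 568 with several symbols in GEO's platform annotation and 1923 with none were left out, and the probe set with the highest mean log2 value stood for each of 12165 genes. R 4.3.3 and its package limma 3.58.1 fitted 1 model of 8 group means (lmFit, then eBayes; residual degrees of freedom 16, prior 5.47), without a filter, with Benjamini-Hochberg adjustment over all genes and a threshold of 0.05. Moderated F tests compared the R406 change between lines and the DMSO groups. Precision is limited by 3 arrays a group.

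The dose follows the treatment protocol (µM), since the series text gives another unit. Replicate numbers were not used as pairs. Of 12 pairs of same-numbered arrays, none had deviations correlated over 0.1 (-0.08 to 0.07). A low correlation cannot show that same-numbered arrays were not handled together.

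Genes named are the 5 highest and 5 lowest called core changes of each line, the 6 widest differences between lines, the 5 widest DMSO ranges, all paralogs with their core partners, and RPS14, RPS19, RPL5, RPL11, RPL10 and RPS6. Probe sets of a gene were compared in order of mean intensity. Others were named after their values were seen. The members and lists were chosen with earlier results of these data known. Alternatives covered normalization, centring, pseudocount, filter, probe set choice, replicate block, variance model, array weights, samples fitted and each array left out. The model was tested on simulated data.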

Additional observations from a re-analysis of the deposited data

Results flagged for a closer look

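The R406 change differed between the 4 lines for 14 core genes and 4 of the paralogs, by a moderated F test in limma with Benjamini-Hochberg adjustment over all genes. These are 23.0% of 61 core genes and 66.7% of 6 paralogs, against 54.8% of all genes. Among the paralogs the adjusted p values were 8.82e-07 for RPL26L1, 6.52e-06 for RPL39L, 0.00058 for RPS27L and 0.0164 for RPL10L. RPL26L1 was lowest in KG-1, RPL39L in MOLM-14, and RPS27L was highest in MOLM-14 and U937.

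Among the large-subunit genes they were 0.000602 for RPL27A, 0.00153 for RPL35, 0.00158 for RPL35A, 0.00198 for RPL37A, 0.00246 for RPL36 and 0.00556 for RPL18. They were 0.00869 for RPL10, 0.0115 for RPL11, 0.0244 for RPL14 and 0.0379 for RPL29. RPL27A and RPL37A rest on probe sets with mean intensities of 49.5 and 83.7. Among the small-subunit genes they were 0.00286 for RPS27, 0.0197 for RPS9, 0.0342 for RPS28 and 0.0455 for RPS15A. RPS14 and RPS25, which rose in both MOLM-14 and KG-1, did not pass (adjusted p = 0.0580 and 0.0876).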

How the results depend on the processing

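Of 151 values compared under settings that kept all arrays, 111 stayed close to the reported value. Close meant a count of similar size (16 against 23 passed) or 0 in both. For a core median it meant a move smaller than the spread of array medians within groups. The filter, the replicate block, limma-trend and the 6 arrays alone left core medians as they were by design, so this tally is no measure of stability. No core median in MOLM-14, U937 or KG-1 changed sign. The count of core genes called higher in MOLM-14, 23 as reported, was 15 with quantile normalization repeated, 36 with a pseudocount of 16, 36 with limma-trend and 9 from the 6 arrays of the line alone. The count in KG-1, 15 as reported, was 9 with quantile normalization, 5 with centring, 30 with the pseudocount of 16, 23 without the dimmest 33.3% of genes, 31 with limma-trend and 4 from 6 arrays. With the replicate number as a block the counts were 16 and 11, and whether the numbers pair the arrays was not settled. In HL-60, 1 core gene was called higher under the pseudocount of 16, limma-trend and each of the 3 other choices of probe set, and 0 lower under the pseudocount of 16. In U937 the count called lower was 2 with the pseudocount of 16, 3 with limma-trend, and 1 with the mean or the lowest probe set or with array weights. The count called lower in MOLM-14 was 1 with quantile normalization or the mean of probe sets, 4 without _x_at and _s_at probe sets and 2 with the lowest probe set. In KG-1 it was 1 with quantile normalization, centring, the pseudocount of 16, the mean of probe sets or limma-trend, 4 without _x_at and _s_at probe sets and 3 with the lowest probe set. The median in MOLM-14 was 0.058 with quantile normalization and 0.12 with the lowest probe set, that in U937 -0.055 with centring, and that in KG-1 0.058 with quantile normalization, 0.038 with centring and 0.089 with array weights. The F test of the R406 change between lines was passed by 31 core genes with the pseudocount of 16 and 30 with limma-trend. With 1 array left out at a time the counts ranged from 16 to 26 in MOLM-14 and 10 to 16 in KG-1, the HL-60 count called lower from 0 to 1, the F test between lines from 10 to 14 and that between DMSO groups from 43 to 49. The medians ranged from 0.10 to 0.11 in MOLM-14, -0.03 to -0.01 in U937, 0.0004 to 0.009 in HL-60 and 0.084 to 0.12 in KG-1 (the lowest without R406 replicate 2). Centring moved the median of all genes to -0.03 in U937 and to -0.05 in KG-1, and the share of calls that were higher from 52.9% to 40.8% and from 53.0% to 44.6%. Of single-gene values, 4210 were unaltered in call, which includes values called in neither setting, and 204 lost and 43 gained one. With 1 array left out at a time, 21 of 40 calls of named genes were lost at least once. Sign changes of values called in neither setting were not counted. Where either setting gave a call, 19 values turned their sign, all through another probe set of the gene. These were, in MOLM-14 and KG-1 where both turned: RPL10 (-0.43 and -0.36), RPL35A (-0.13 and -0.050), RPL37A (-1.04 and -0.71, and -0.13 in MOLM-14 with the mean), RPS14 (-0.58 and -0.42 without _x_at and _s_at, -0.14 and -0.097 with the mean, -0.0011 and -0.066 with the lowest), and in KG-1 alone RPL5 (-0.51) and RPLP2 (-0.066). The F tests were not run on the 6 arrays of a line, nor that of the DMSO groups with the block. The cause of these changes was not tested. For the 3 dim core probe sets (RPL37A, RPL27A and RPS28, mean intensity under 100), the signal limits what can be read.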
